A study of Mus musculus with 6 samples.

Results

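Inherited corneal dystrophies and brittle cornea syndrome are caused by, or associated with, variants in a small group of human genes. The mouse counterparts of 7 of them, Tgfbi, Slc4a11, Zeb1, Zfp469, Pikfyve, Gsn and Tcf4, were read in bulk RNA-seq of corneal keratocytes. They were chosen by gene symbol, and their Entrez gene IDs are 21810, 269356, 21417, 195209, 18711, 227753 and 21413 in this order. All 7 were present among the 17606 genes of the deposited table, and all 7 passed the filter on low counts that left 13888 genes for testing.

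Keratocytes, the resident cells of the corneal stroma, were sorted from the corneas of adult mice to ask how their transcriptome changes when the Hedgehog receptor Ptch1, which restrains the pathway, is removed. The Ptch1-ablated group (3 libraries) came from Prrx1-CreERT;Ptch1 f/f mice, in which tamoxifen activates a Cre recombinase that deletes the floxed Ptch1 alleles. The floxed line had been backcrossed to C57BL/6. The control group (3 libraries) came from mice labelled as ctrl, with WT in the sample titles, and no allele of theirs is given. Mice of both groups were 10 weeks old, received 3 doses of tamoxifen and were sampled after 1 month. Prrx1-CreERT is a knock-in line that also recombines in the corneal endothelium and in other ocular mesenchyme, so the deletion was not restricted to keratocytes. Whether a library holds the cells of 1 mouse or of several is not given in the labels, and p-values below measure the spread between these libraries.

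The 7 genes fall into 4 roles. Tgfbi encodes the secreted matrix protein keratoepithelin, whose mutant forms deposit in the stroma in granular and lattice dystrophies, and Gsn encodes the actin-severing protein gelsolin, whose mutant fragments form the amyloid of the Finnish type of lattice dystrophy. Slc4a11 encodes a membrane transporter of the corneal endothelium, the cell layer that pumps water out of the stroma, and it is mutated in congenital hereditary endothelial dystrophy and in some late-onset Fuchs dystrophy. Zeb1 and Tcf4 encode transcription factors that bind E-box sequences and are linked to posterior polymorphous and Fuchs dystrophy. Zfp469 encodes the zinc finger protein that is lost in brittle cornea syndrome. Pikfyve encodes the lipid kinase of fleck dystrophy, in which stromal keratocytes themselves fill with vacuoles.

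The libraries held between 20258439 and 24788063 counts, and between 14344 and 15664 genes had a count above 0. Counts of Ptch1 per 1000000 scaled counts of the library (CPM) were 7.89, 5.47 and 16.2 in the control libraries and 185, 221 and 251 in the Ptch1-ablated libraries. The deleted exons cannot be seen in a count of the whole gene, and the targets of the pathway followed the labels too, with Gli1 at 0.046 to 1.58 CPM in controls and 125 to 129 CPM after ablation. On a principal component analysis the first component separated the groups (50.1% of the variance). The second (18.8%) set control replicate 1 and Ptch1-ablated replicate 2 apart from the other 4 libraries. Fits that leave out libraries of this pair are given below for Slc4a11, Zeb1 and Pikfyve. The keratocyte markers Kera, Lum, Dcn, Aldh3a1, Aldh1a1, Tkt, Ptgds and Cd34 together held 84855 to 94972 CPM in controls and 52816 to 70577 CPM after ablation. Of the 7 that could be tested 5 fell at an adjusted p of at most 0.05, as 3.8% of all genes tested did. The other one, Ptgds, had too few counts to test.

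One member passed the test, and it fell. Tgfbi stood at 490, 489 and 456 CPM in the 3 control libraries and at 279, 259 and 273 CPM in the 3 Ptch1-ablated libraries. Every control library was higher than every Ptch1-ablated library, and the groups were far apart for the small spread within each, with coefficients of variation of 3.96% and 3.69%. The means were 478 ± 18.9 CPM and 270.1 ± 9.97 CPM (SD, n = 3 each), so the gene was 1.77-fold higher in controls. The log2 fold change of ablated over control was -0.82 ± 0.12 (SE), with a 95% interval from -1.08 to -0.56 and an adjusted p of 0.000880 in edgeR's quasi-likelihood test. In all genes tested, 8.48% passed an adjusted p of 0.05 in either direction (3.8% lower and 4.68% higher), beside 1 of these 7. None of the 7 passed both that threshold and a 2-fold change in the main edgeR fit, which 5.49% of all genes did. Slc4a11, described below, passed both in DESeq2 and in other alternative fits, edgeR fits among them. The list counts below stand beside the same shares of all genes. The call on Tgfbi held in all 16 alternative fits, with log2 fold changes from -0.87 to -0.61. In bulk samples, fewer cells of a type and less RNA per cell cannot be told apart.

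The promoter of Tgfbi is shown because it is the one member past the test. The window runs from 250 bases before to 50 bases after the transcription start in RefSeq, on the plus strand at chr13:56609336-56609635 of GRCm38.p6, and it holds 63.3% G and C. Capitals mark GC boxes (GGGCGG, or CCGCCC on the opposite strand), whose first bases lie at offsets of -124 and 15 bases from the transcription start.

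Tgfbi promoter: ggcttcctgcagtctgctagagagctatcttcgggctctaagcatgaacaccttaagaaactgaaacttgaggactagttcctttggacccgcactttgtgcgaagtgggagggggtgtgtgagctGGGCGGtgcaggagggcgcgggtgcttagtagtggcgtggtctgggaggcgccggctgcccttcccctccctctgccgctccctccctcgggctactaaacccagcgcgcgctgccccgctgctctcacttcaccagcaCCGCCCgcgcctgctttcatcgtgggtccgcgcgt

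Of 32851 mouse promoter windows of this length, 35.7% hold a GC box on either strand. The GLI consensus TGGGTGGTC is in 0.253% of the windows and the E-box CACCTG bound by ZEB1 is in 20.2%. Neither sequence is in the Tgfbi window on either strand, which says only that these letters are not in these 300 bases.

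**Figure D1:**
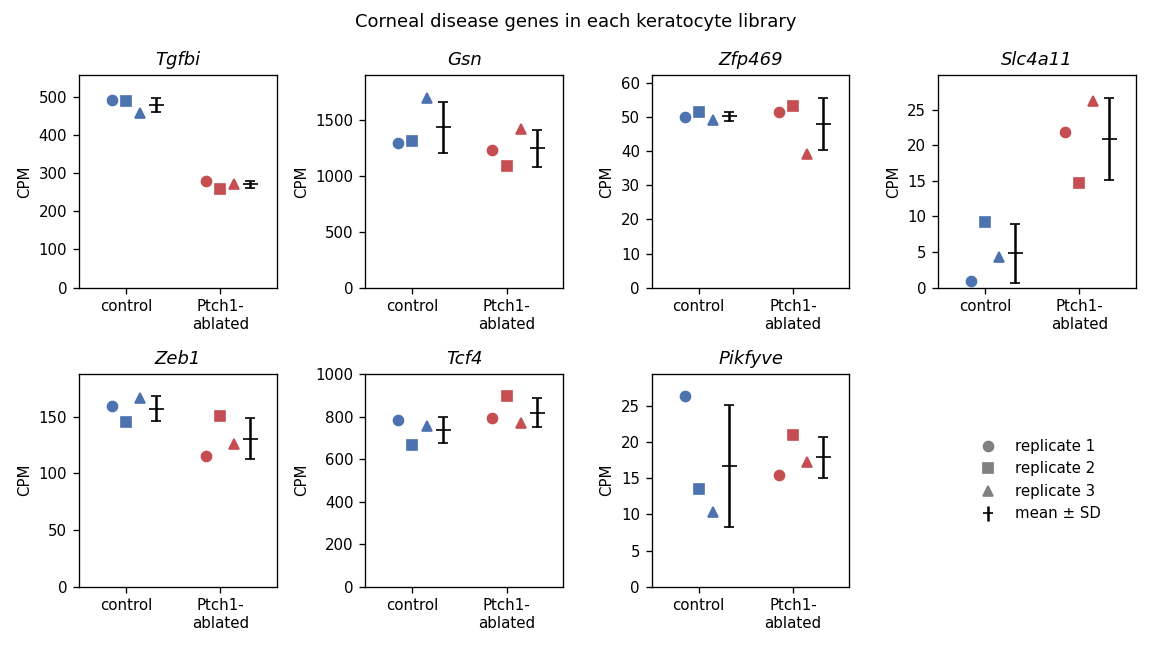
Scaled counts per 1000000 (CPM, linear axis from 0) of each of the 7 genes in the 3 control libraries (blue) and the 3 Ptch1-ablated libraries (red), with the mean and SD of each group in black and replicates 1 to 3 as circle, square and triangle. The groups are apart for Tgfbi, which is lower in every ablated library, and for Slc4a11, which is higher in every ablated library, and they overlap for the other 5 genes.

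Slc4a11 was the one other member whose groups did not overlap. It was measured at 0.918, 9.15 and 4.38 CPM in controls, from 20, 174 and 100 counts, and at 21.8, 14.7 and 26.2 CPM after ablation, from 511, 346 and 650 counts. The control libraries were low and scattered, with a coefficient of variation of 85.9%, against 27.7% after ablation. The means were 4.82 ± 4.13 CPM and 20.9 ± 5.79 CPM (SD, n = 3 each). The log2 fold change was 2.12 ± 0.61 (SE), which is 4.35-fold with a 95% interval from 1.72 to 10.99. With an unadjusted p of 0.00486 and an adjusted p of 0.0541 in edgeR's test, Slc4a11 missed the threshold. Of all genes tested, 27.4% had groups that did not overlap (14.1% higher and 13.3% lower after ablation), beside 2 of these 7. An exact permutation test of 3 against 3 libraries cannot give a p below 0.1.

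The call on Slc4a11 turned on the settings, although its direction did not. In 9 of the 16 alternative fits it passed. Without control replicate 1, its lowest library, the log2 fold change was 1.63 (adjusted p = 0.0344), and without that library and Ptch1-ablated replicate 2 together it was 1.83 (adjusted p = 0.0205). Without control replicate 2, its highest control library, it was 2.97 (adjusted p = 0.0174). Leaving out control replicate 3 or any 1 of the ablated libraries gave adjusted p-values from 0.0898 to 0.182.

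Slc4a11 is a marker of the corneal endothelium, a cell layer in which Prrx1-CreERT also recombines, so the other markers of that layer are given beside it. The paper's protocol for culturing keratocytes scrapes off the endothelium, and whether these libraries followed it is not stated. The 8 listed markers, Slc4a11 included, summed to 1185 to 1264 CPM in controls and 707 to 1010 CPM after ablation. Most of that sum was Col8a2, with 708, 763 and 625 CPM in controls and 716, 497 and 397 CPM after ablation. Car3, a carbonic anhydrase, was at 0, 0.631 and 0 CPM in controls, where 1 library had 12 counts and the others 0, and at 5.12, 9.22 and 10.8 CPM after ablation. It passed the low-count filter only through the ablated libraries. The adhesion molecule Alcam fell by 1.77 and the sodium-proton exchanger Slc9a7 fell by 1.28 on the log2 scale (adjusted p = 3.62e-05 and 0.00153). Col8a2, a collagen of Descemet's membrane, the basement membrane under that layer, had a log2 fold change of -0.38 (adjusted p = 0.286; -0.64 and 0.0327 without Ptch1-ablated replicate 1) and Nrcam one of 2.37 (adjusted p = 0.359). Atp1b1, a subunit of the sodium pump, was at 1.45 ± 1.35 CPM in controls and 1.37 ± 0.178 CPM after ablation. None of these markers was at 0 in every library, and the part of endothelial cells in the Slc4a11 values was not tested.

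No tested relative of Slc4a11 in the bicarbonate transporter family passed the threshold, which 8.48% of all genes tested did. Of 9 listed relatives, 8 were in the table and 5 could be tested, and 0 passed in edgeR, in DESeq2 or in any other alternative, nor at an unadjusted p under 0.05 in edgeR. Slc4a4, the sodium bicarbonate cotransporter, was the most abundant, at 194, 167 and 188 CPM in controls and 159, 198 and 159 CPM after ablation (log2 fold change -0.089 ± 0.15 (SE), adjusted p = 0.812). The anion exchangers Slc4a2 and Slc4a3 had log2 fold changes of -0.14 and 0.53, and the bicarbonate transporter Slc4a7 had 0.65 (adjusted p = 0.718, 0.461 and 0.477).

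The groups overlapped for Gsn, the most abundant of the 7. Its control libraries stood at 1296, 1310 and 1702 CPM and its Ptch1-ablated libraries at 1229, 1093 and 1422 CPM. Replicate 3 was the highest library of either group, and the means were 1436 ± 230.4 CPM and 1248 ± 166 CPM (SD, n = 3 each). Its log2 fold change was -0.20 ± 0.14 (SE), with a 95% interval from -0.51 to 0.10 (edgeR adjusted p = 0.475). On the scale of log2 transcripts per 1000000 (TPM + 1), which also divides by transcript length, it was 0.013, where the median of all genes was 0.19, so Gsn lay 0.18 below that median.

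Of all genes tested 4.68% were called higher, and of 7 other gelsolin family members listed, 5 could be tested and 1 rose. This was Svil, which encodes the membrane-linking protein supervillin, with 69.3 ± 4.80 CPM in controls and 103 ± 1.73 CPM after ablation (log2 fold change 0.57 ± 0.15 (SE), adjusted p = 0.0420). Its call was lost in 10 of the 16 alternative fits, including those without any 1 library. The barbed-end capping protein Capg and the coactivator Flii had log2 fold changes of 0.15 and 0.28 (adjusted p = 0.698 and 0.515).

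Zeb1 and Tcf4, the E-box binding factors, did not pass the test. Zeb1 was at 160, 145 and 166 CPM in controls and 115, 150 and 126 CPM after ablation. The second ablated library lay within the control range and the other 2 lay below it. The log2 fold change was -0.27 ± 0.15 (SE), with a 95% interval from -0.60 to 0.071 (edgeR adjusted p = 0.376). On the log2(TPM + 1) scale it was 0.0035, which is 0.19 below the median of all genes. In edgeR without Ptch1-ablated replicate 2 the log2 fold change was -0.375 (adjusted p = 0.250). Without that library and control replicate 1 together it was -0.369 (edgeR adjusted p = 0.290). The exons of Zeb1 overlap an antisense transcript, Gm10125, that is not among the genes of the deposited table. The counting is not stated to use strand. The Zeb1 counts were fractional, but 18.6% of all expected counts were not whole, and the source of the fractions was not tested. Reads of the antisense transcript cannot be told apart from those of Zeb1 in these counts.

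Tcf4 stood at 786, 668 and 756 CPM in controls and 793, 896 and 769 CPM after ablation. The groups overlapped, with means of 737 ± 61.4 CPM and 819 ± 67.5 CPM (SD, n = 3 each). Its log2 fold change was 0.15 ± 0.12 (SE), with a 95% interval from -0.11 to 0.41 (edgeR adjusted p = 0.539).

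Among the factors that act with Zeb1 in epithelial-mesenchymal transition, and the epithelial genes they repress, 11 of 13 listed could be tested and 1 rose. The share of all genes tested called higher was 4.68%. Snai1, the repressor known as Snail, went from 104 ± 20.5 CPM to 192 ± 24.0 CPM (log2 fold change 0.89 ± 0.18 (SE), adjusted p = 0.00809). Without control replicate 2 it missed the threshold (0.75, adjusted p = 0.0501). Zeb2, the closest relative of Zeb1, had a log2 fold change of 0.33 ± 0.22 (SE) (adjusted p = 0.455). Twist2 had -0.35 (adjusted p = 0.494). Twist1, named after its values were seen, stood at 27.5, 30.2 and 31.2 CPM in controls and 18.5, 18.2 and 11.9 CPM after ablation, with groups that did not overlap (-0.87 ± 0.26 (SE), adjusted p = 0.0617). It passed with upper quartile scaling and in DESeq2 (adjusted p = 0.0478 and 0.0237), which made 2 calls in this list. The corepressors Ctbp1 and Ctbp2, through which ZEB proteins act, had -0.025 and 0.036 (adjusted p = 0.982 and 0.973).

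The partners of Tcf4 showed 2 genes that rose. E proteins such as Tcf4 bind DNA in pairs, and Id proteins, which lack a DNA-binding part, pair with them and hold them off DNA. Of 6 listed genes, all tested, Id3 and Id1 passed, beside 4.68% of all genes tested called higher. Id3 stood at 201, 162 and 177 CPM in controls and 333, 393 and 506 CPM after ablation, with every ablated library above every control library (log2 fold change 1.19 ± 0.17 (SE), adjusted p = 0.000751), and it passed in all 16 alternatives. Id1 went from 40.3 ± 9.11 CPM to 75.6 ± 13.5 CPM (0.91 ± 0.22 (SE), adjusted p = 0.0244), a call that was lost without control replicate 2 (0.73, adjusted p = 0.105) or Ptch1-ablated replicate 3 (0.75, adjusted p = 0.128). Id2 had a log2 fold change of 0.73 (adjusted p = 0.102), Id4 0.64 (adjusted p = 0.540), Tcf3 0.54 (adjusted p = 0.325) and Tcf12 -0.16 (adjusted p = 0.721). The median log2 fold change of the 6 genes was 0.69, beside 0.0046 over all genes tested. Id2 passed in 4 alternatives, DESeq2 (adjusted p = 0.0459), both TPM fits and scaling by library totals only. In the TPM and library-total fits its log2 fold change was 0.93, 0.94 and 0.90. The median of all genes was also higher there, at 0.19, 0.22 and 0.17. The summed levels of vascular endothelial, mural and leukocyte markers, given below, also differed between the groups, and their part in the Id values was not tested.

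Zfp469 was at 49.9, 51.4 and 49.0 CPM in controls and 51.5, 53.2 and 39.2 CPM after ablation. The ablated libraries lay on both sides of the narrow control range, with replicate 3 low. The log2 fold change was -0.063 ± 0.19 (SE), with a 95% interval from -0.49 to 0.36 (edgeR adjusted p = 0.911). It was 0.058 without Ptch1-ablated replicate 3, so no direction can be given.

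Pikfyve had the lowest mean level per transcript length of the 7 genes in either group. It stood at 26.4, 13.5 and 10.3 CPM in controls and 15.5, 21.0 and 17.3 CPM after ablation. Control replicate 1 was the highest of all 6 libraries, and the control coefficient of variation was 50.9%, against 15.8% after ablation. Its log2 fold change was 0.099 ± 0.36 (SE), with a 95% interval from -0.68 to 0.88 (edgeR adjusted p = 0.927). It was 0.59 without control replicate 1, and it was below 0 without control replicate 2 (-0.032), control replicate 3 (-0.15) or Ptch1-ablated replicate 2 (-0.025), so no direction can be given.

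PIKfyve makes the lipid PI(3,5)P2 on endosomes and lysosomes, where that lipid opens the channels encoded by Mcoln1, Tpcn1 and Tpcn2. Of 9 genes of the complex and its lipid pathway, all tested, 1 fell, beside 3.8% of all genes tested called lower. Mcoln1 went from 63.2 ± 8.51 CPM to 36.4 ± 8.12 CPM (log2 fold change -0.80 ± 0.22 (SE), adjusted p = 0.0456), and the call was lost in 11 of the 16 alternative fits, among them all those that left out a library. Tpcn1 had 0.40 (adjusted p = 0.231), the phosphatase Mtmr2 had 0.36 (adjusted p = 0.291), and Pik3r4 and Pik3c3, which make the precursor lipid, had 0.18 and 0.068 (adjusted p = 0.732 and 0.918). The scaffold Vac14 and the phosphatase Fig4, which bind PIKfyve directly and were picked for naming after their values were seen, had log2 fold changes of -0.23 and -0.18 (adjusted p = 0.900 and 0.722).

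Levels of different genes were compared in TPM, which is per transcript length. In controls the order was Gsn (mean 1184 TPM), Tgfbi (384 TPM), Tcf4 (178 TPM), Zeb1 (39.4 TPM), Zfp469 (7.47 TPM), Slc4a11 (3.30 TPM) and Pikfyve (2.99 TPM). The ranges of neighbours in this order were apart except for the last pair, where Slc4a11 ran from 0.70 to 6.08 TPM and Pikfyve from 1.90 to 4.65 TPM. Gsn was higher than 99.4% of the tested genes and Tgfbi than 97.7%, whereas Pikfyve was higher than 20.2%.

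After ablation 1 pair changed places and another came to overlap. Tgfbi, at 251 TPM, ran from 243.1 to 255.8 TPM and met the range of Tcf4, at 220 TPM with a range from 201 to 245 TPM. Slc4a11, at 16.6 TPM with a range from 12.7 to 19.9 TPM, lay above the whole range of Zfp469, which ran from 6.55 to 9.85 TPM. It was then higher than 49.7% of the tested genes, against 21.5% in controls. Gsn held the first place at 1185 TPM and Pikfyve the last at 3.75 TPM.

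**Figure D2:**
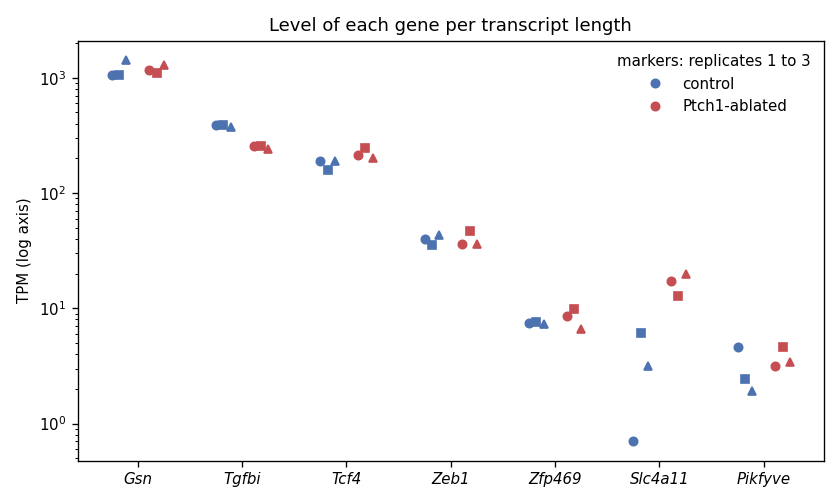
Level per transcript length (TPM, log axis) of the 7 genes in each library, with control libraries in blue, Ptch1-ablated libraries in red and replicates 1 to 3 as circle, square and triangle. Gsn lies above 1000 TPM in every library and Pikfyve below 5 TPM, and Slc4a11 runs from 0.70 to 6.08 TPM in controls and from 12.7 to 19.9 TPM after ablation.

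The deposited FPKM values, fragments scaled by transcript length and library depth, also show the length by which the counts of each gene were divided. RSEM weights that effective length by the transcript isoforms it assigns reads to, so a shift in it reports a shift in the isoforms it assigned. It was computed where FPKM was at least 1 in every library, which left out Slc4a11 and Pikfyve. For Zeb1 it was 7925, 8093 and 7860 bases in controls and 7334, 7771 and 7742 bases after ablation, with every ablated library shorter. For Tcf4 it was 8184, 8293 and 8232 bases in controls and 8418, 8905 and 8458 bases after ablation, with every ablated library longer. The means of Zeb1 differed by -4.32% and those of Tcf4 by 4.34%. Much of each difference came from 1 library, Ptch1-ablated replicate 1 for Zeb1 (7334 bases) and Ptch1-ablated replicate 2 for Tcf4 (8905 bases). The means without these libraries were not computed. Over 10336 genes the median absolute difference was 0.238%, the 90th percentile was 4.31%, and 5.88% of the genes had groups apart. The lengths of Tgfbi, Gsn and Zfp469 had overlapping groups and differed by 0.013%, 0.018% and 0.077%. These are estimates with no test, and the isoforms themselves are not in the table.

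**Figure D3:**
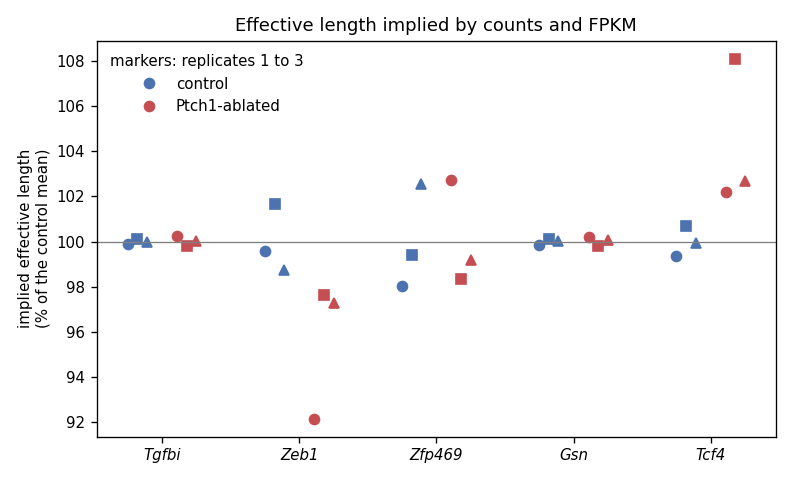
Effective transcript length implied by the counts and FPKM of each library, as a percentage of the control mean of that gene (linear axis that does not start at 0), with control libraries in blue, Ptch1-ablated libraries in red and replicates 1 to 3 as circle, square and triangle. The ablated libraries lie below the controls for Zeb1 and above them for Tcf4, and the groups overlap for Tgfbi, Zfp469 and Gsn.

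Tgfbi binds to matrix proteins and integrins, and 4 of its 10 listed partners fell and the other 6 did not pass. Over all genes tested, 3.8% were called lower. Col6a3, a chain of collagen VI, fell by 1.50 and fibronectin (Fn1) fell by 1.23 on the log2 scale (adjusted p = 4.41e-06 and 0.000115), and both passed in all 16 alternatives. Postn, which encodes periostin, the closest relative of Tgfbi, had 111 ± 6.54 CPM in controls and 71.4 ± 11.9 CPM after ablation (log2 fold change -0.64 ± 0.17 (SE), adjusted p = 0.0399). The integrin chain Itgb5 had 126 ± 21.0 CPM and 72.8 ± 17.7 CPM (-0.79 ± 0.21 (SE), adjusted p = 0.0342). The calls on Postn and Itgb5 were lost in 10 and 9 of the 16 alternative fits. The other collagen VI chains, Col6a1 and Col6a2, had log2 fold changes of -0.24 and -0.23 (adjusted p = 0.172 and 0.183), and the integrin chains Itgb1 and Itga3 had -0.25 and 0.28 (adjusted p = 0.353 and 0.431). The median of the 10 partners was -0.31.

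Tgfbi is named for its induction by TGF-beta, and of 10 genes of that pathway, all tested, 1 rose. The share called higher over all genes tested was 4.68%. The ligand Tgfb3 went from 98.5 ± 16.3 CPM to 171 ± 10.4 CPM, in the direction opposite to Tgfbi (log2 fold change 0.80 ± 0.16 (SE), adjusted p = 0.00847). It missed the threshold without control replicate 2 (0.72, adjusted p = 0.0581). The receptors Tgfbr1, Tgfbr2 and Tgfbr3 had -0.42, -0.14 and -0.18 (adjusted p = 0.208, 0.703 and 0.593), and the signal transducer Smad3 had -0.30 (adjusted p = 0.420).

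The 3 genes whose pattern over the 6 libraries was most like that of Tgfbi, among 9235 genes with a mean of at least 10 CPM, were Pgm5, Mgarp and Exoc3l2. The measure was Pearson's r of log2(CPM + 1), which was 0.9997, 0.999 and 0.9985, and the points share their libraries and their 2 groups. Pgm5, a phosphoglucomutase relative of adhesion sites, went from 31.3, 31.1 and 25.9 CPM to 6.30, 5.46 and 6.07 CPM. Mgarp, a mitochondrial protein, went from 2732, 2806 and 2554 CPM to 763, 658 and 755 CPM. Exoc3l2 went from 132, 132 and 107 CPM to 35.2, 26.5 and 33.2 CPM.

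Further human corneal disease genes were read from 2 lists, and their counts stand beside the 7. Of 11 other corneal dystrophy genes, 9 were in the table and 6 could be tested, of which 1 was called higher and 1 lower. Their median was -0.35 on the log2 scale. Beside these counts, 4.68% of all genes tested were called higher and 3.8% lower. The 1 of these 6 called higher, Krt12, passed the low-count filter only through the ablated libraries, where it is high. It is described by its values below. Chst5, the mouse counterpart of the sulfotransferase gene of macular dystrophy, CHST6, stood at 620, 655 and 552 CPM in controls and 394, 293 and 346 CPM after ablation (log2 fold change -0.82 ± 0.14 (SE), adjusted p = 0.00282). Every control library was higher than every ablated library, and the call held in all 16 alternatives. Dcn, which encodes the proteoglycan decorin of congenital stromal dystrophy, had -0.32 ± 0.13 (SE) (adjusted p = 0.177), and it passed without Ptch1-ablated replicate 3 (-0.48, adjusted p = 0.0290).

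Krt12, the corneal epithelial keratin of Meesmann dystrophy, was at 0 in every control library and at 0.895, 2.08 and 2.09 CPM after ablation, from 21, 49 and 52 counts. It was at least 11.9-fold higher, taking 3 counts in each control library as the floor. Krt12 was not tested with a minimum mean count of 50. In the other 15 alternatives the call was lost under 6, 5 of which left out a single library. The basal keratins were low after ablation. Krt5 was at 8.44 ± 4.77 CPM in controls and 0.242 ± 0.418 CPM after ablation, Krt14 at 9.09 ± 1.00 CPM and 0.284 ± 0.456 CPM. Krt15 was at 35.5 ± 10.3 CPM in controls and 0.313 ± 0.541 CPM after ablation, and the 9 epithelial markers summed to 41.4 to 72.2 CPM in controls and 2.66 to 10.2 CPM after ablation. The part of epithelial cells in the Krt12 values was not tested.

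Of 12 other genes of thin or fragile corneas, 11 were tested, of which 7 fell and 4 did not pass, with a median log2 fold change of -0.75. Over all genes tested, 3.8% were called lower. Slc39a13 and Plod1, a zinc transporter and a collagen lysyl hydroxylase of Ehlers-Danlos syndromes with fragile connective tissue, fell by 0.75 and 0.73 (adjusted p = 0.00834 and 0.00106). Fndc3b, at a locus associated with corneal thickness, fell by 0.85 (adjusted p = 0.00634), and Lox, the collagen cross-linking oxidase, fell by 0.80 (adjusted p = 0.00577). Kera fell by 1.59, and the collagen V chains Col5a1 and Col5a2 fell by 1.44 and 1.39. The calls on Lox and Fndc3b were lost in both fits on TPM, where the median of all genes was 0.19 and 0.22. The call on Slc39a13 was lost without control replicate 2 (log2 fold change -0.71, adjusted p = 0.0506). Among the genes that did not pass were Foxo1 (0.18, adjusted p = 0.839), Chrdl1 of megalocornea (-0.58, adjusted p = 0.393) and Fkbp14 (-0.30, adjusted p = 0.404).

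**Figure D4:**
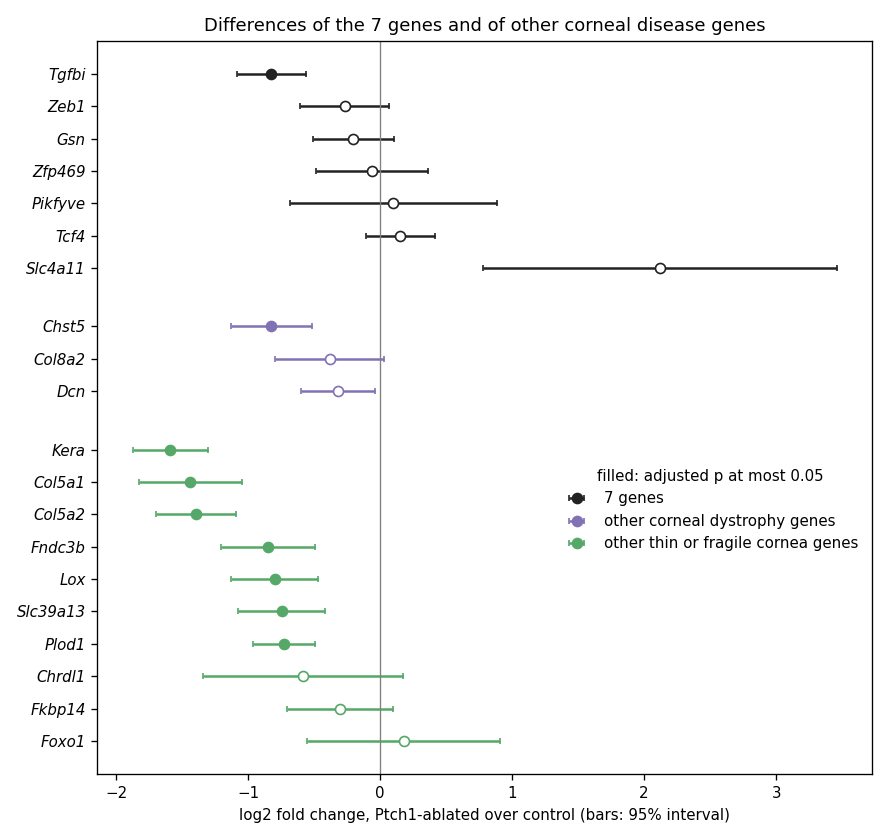
Log2 fold change of Ptch1-ablated over control keratocytes from edgeR, with 95% intervals, for the 7 genes (black), other corneal dystrophy genes (purple) and other genes of thin or fragile corneas (green), with filled circles at an adjusted p of at most 0.05. Only genes named in the text are drawn, and Krt12 is left out because its control counts are 0. Tgfbi at -0.82, Chst5 at -0.82 and 7 green genes are filled on the lower side, and Slc4a11 at 2.12 is open with an interval above 0.

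Over the 9 lists of related genes, 73 genes were tested, of which 6, Krt12 included, were called higher and 13 lower. Over all genes tested, 4.68% were called higher and 3.8% lower. The lists were chosen with earlier results of these data known, so their counts are a description only. Without control replicate 2 the 19 calls became 10. The 7 dystrophy genes themselves had a median log2 fold change of -0.063.

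Markers of other cells that a corneal sort could hold moved between the groups as well. Their counts stand beside 4.68% of all genes tested called higher and 3.8% called lower. Vascular endothelial markers summed to 645 to 823 CPM in controls and 875 to 922 CPM after ablation, and 3 of 5 rose. Kdr, the most abundant of the 5, went the other way, from 464, 557 and 639 CPM to 402, 428 and 431 CPM (log2 fold change -0.40, adjusted p = 0.112). Leukocyte markers summed to 1955 to 2088 CPM and 2728 to 2867 CPM (2 of 6 rose), mural cell markers to 903 to 1094 CPM and 1280 to 1381 CPM (2 of 6 rose), and Schwann cell markers to 65.0 to 91.4 CPM and 127.5 to 152.7 CPM (2 of 5 rose). Cd74 made most of the leukocyte sum, with 1690, 1615 and 1463 CPM in controls and 2355, 2390 and 2176 CPM after ablation. Adgre1, Cd68 and Ptprc had log2 fold changes of -0.32, -0.13 and 0.19 (adjusted p = 0.528, 0.843 and 0.767). Itgam and Csf1r had 0.79 and 0.23 (adjusted p = 0.0316 and 0.462). Pdgfrb, the most abundant mural marker, had 0.11 (adjusted p = 0.735), while Rgs5 went from 232 ± 10.3 CPM to 417 ± 22.1 CPM. Melanocyte markers summed to 3.74 to 7.21 CPM and 4.60 to 7.62 CPM, and 0 of the 3 tested passed. None of these markers was at 0 in all 6 libraries, and their part in the values of the 7 genes was not tested.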

How the data were processed

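Keratocytes sorted from mouse corneas were profiled by RNA-seq in 3 control and 3 Ptch1-ablated libraries. The labels name an Illumina TruSeq kit, whereas the study's methods name Ribo-Zero depletion and a BGISEQ platform. The authors aligned reads with Bowtie2 2.2.5 and deposited RSEM 1.2.12 expected counts, TPM and FPKM for each gene and library. The submitters' processing notes name mm9. The annotation and strand setting are not given in the sources used here.

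Expected counts, of which 18.6% were not whole, were rounded and tested in R 4.3.3 with edgeR 4.0.16 (filterByExpr, TMM scaling, quasi-likelihood test, two-sided, Benjamini-Hochberg over all 13888 genes tested). CPM are TMM-scaled. With 20258439 to 24788063 counts a library, a floor of 3 counts is 0.121 to 0.158 CPM, and floors cover counting error only. SE is the log2 fold change over the root of F. Deposited TPM served for levels between genes and for limma 3.58.1 on log2(TPM + 1) and log2(TPM + 0.1), scales that can understate changes of low genes. Slc4a11 was at 2.24 and 2.70 on them, against 2.12 in the main fit. Taken against the median of all genes, these values were 2.04, 2.48 and 2.12. Effective length was taken from the expected counts and FPKM that the authors deposited. DESeq2 1.42.0 was an alternative. The code was tested on simulated data, where it recovered most of the changed genes. Symbols came from the table, and RefSeq matched 17478 of 17606 gene IDs. Promoters were given for 3 of the 7 genes.

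The 7 genes and all gene lists were chosen with earlier results of these data known. Named were the 7 genes, list members past the threshold, up to 4 others of each list by level, and the 3 genes most like each member that passed. Some listed genes are counted in their list but not reported here by name. Replicates of a group differed by more than sampling noise, so none was counted as a duplicate. The 16 alternatives were RLE, upper quartile and library-total scaling, DESeq2, both TPM fits, no filter, a minimum mean count of 50, the replicate block, and leaving out each library or the 2 libraries that stand apart.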

Additional observations from a re-analysis of the deposited data

How the results depend on the processing

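The limits are 3 libraries a group, 1 antisense overlap at Zeb1, and low counts for Slc4a11 and Pikfyve. Of the 16 alternatives, scaling by library totals only and leaving out control replicate 1 with Ptch1-ablated replicate 2 were chosen after seeing the data. Tgfbi and Tcf4 kept their direction and their side of the threshold in all 16. The number of genes past an adjusted p of 0.05 was 1178, was 1813 in DESeq2 and ran from 778 to 1015 when 1 library was left out. With a 2-fold change it was 763, and 611 to 1051 over the alternatives. The list members past the threshold numbered 19, and 10 to 16 when 1 library was left out. Scaling by library totals only moved the median log2 fold change of all genes from 0.0046 to 0.17, and the TPM fits with pseudocounts 1 and 0.1 moved it to 0.19 and 0.22, so changes on those scales are read against these medians.

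Slc4a11 passed the threshold in DESeq2 (2.13), with no low-count filter (2.12), with a mean count of at least 50 (2.12), in the TPM fits with pseudocount 1 (2.24) and 0.1 (2.70), with library totals only (2.30) and without both libraries that stand apart (1.83). Leaving out 1 library gave 1.63 to 2.97. On these scales signs turned for Zeb1 (0.0035 in both TPM fits), Gsn (0.013 in both) and Zfp469 (0.12 and 0.13 in the TPM fits, 0.11 with library totals only). Each stayed below the median of all genes in these fits. Taken against that median they were -0.19 and -0.22, -0.18 and -0.21, and -0.070, -0.086 and -0.068. In the main fit Zeb1, Gsn and Zfp469 were -0.27, -0.21 and -0.068 against it. Zfp469 ran from -0.14 to 0.058 and Pikfyve from -0.15 to 0.59 without 1 library. The cause was not tested.

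Replicate numbers are not said to pair the samples, and the values below cannot settle whether they do. Deviations of same-numbered libraries correlated at -0.0221, -0.0625 and 0.0388, and not every library correlated best with its own number. With the replicate block 942 genes passed and 663 with a 2-fold change, and Slc4a11 was at 2.53 (edgeR adjusted p = 0.0625). The block changed no call among the 7 genes. Of the list calls it lost those on Krt12, Postn, Mcoln1 and Svil and gained Dcn (-0.33, adjusted p = 0.0204), for 16 in all.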
